A study of Mus musculus with 22 samples.

Results

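The expression of 7 genes of the solute carrier family Slc22 was followed in mouse kidney: Slc22a2, Slc22a6, Slc22a7, Slc22a8, Slc22a12, Slc22a26 and Slc22a29. They were taken from a list of names, each by its brightest probe set with a single gene symbol, and all 7 of the 7 were among the 13967 genes that passed a filter on dim probe sets. RNA of 2 or 3 mice was combined into a pool, and each pool was hybridised to an Affymetrix whole-transcript array. The knockout (KO) group was clock(-/-) mice and the wild-type (WT) group was wild type mice, and the clock-deficient colony was founded on clock(+/-) pairs. All mice had 2 weeks of 12 hours light and 12 hours dark and then 30 hours of constant darkness, and kidneys were taken every 4 hours, at 6 circadian times from ZT0 to ZT20, where ZT0 is lights on and ZT12 lights off in the earlier cycle. Each genotype had 11 arrays, with 2 pools at each time except 1 KO pool at ZT16 and 1 WT pool at ZT8. The labels give no sex, age or strain, name the tissue both as whole kidney and as left kidney, and describe the mutation as carried by the mice, not as limited to one tissue. Whether pools came from different litters or days is not stated there, and the spread that p-values measure is that between the pools. In whole kidney RNA, fewer cells of a type and less RNA per cell cannot be told apart.

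Slc22 proteins carry small organic ions across cell membranes, and in the kidney many sit in the proximal tubule, where they take up drugs, toxins and metabolites for secretion or recover them from the filtrate. Slc22a6 (OAT1) and Slc22a8 (OAT3) load organic anions from the blood side in exchange for dicarboxylates, and Slc22a7 (OAT2) is another organic anion carrier. Slc22a2 (OCT2) takes up organic cations on the blood side, and Slc22a12 (URAT1) exchanges urate at the luminal side. Slc22a26 and Slc22a29 belong to a group of organic anion transporter genes found in rodents, and their substrates are less well known. Clock forms, with Arntl, the pair of transcription factors at the head of the circadian oscillator.

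In the RefSeq gene table of GRCm38.p6, used here for names and gene order, 5 of the 7 lie on chromosome 19 and Slc22a2 and Slc22a7 on chromosome 17, while Clock is on chromosome 5. Slc22a6 and Slc22a8 are direct neighbours among protein-coding genes, Slc22a30 lies between Slc22a8 and Slc22a29, and Slc22a27 and Slc22a28 lie between Slc22a29 and Slc22a26. RefSeq promoter windows, 250 bases before to 50 after a transcript start (GRCm38.p6), were found for 6 of the 7. For Slc22a29 and Slc22a8 that start lies inside the span the gene table gives for all transcripts together, so other starts of these genes are not covered. The windows of 4 genes on chromosome 19 are shown, because Slc22a26 and Slc22a29 differed in direction and the neighbours Slc22a6 and Slc22a8 in whether they passed the test. Capitals mark matches to the E-box CACGTG, to its variant CACGTT or to the D-box sequences TTATGTAA and TTACGTAA, sought on both strands.
Slc22a26, chr19:7802618-7802917, minus strand: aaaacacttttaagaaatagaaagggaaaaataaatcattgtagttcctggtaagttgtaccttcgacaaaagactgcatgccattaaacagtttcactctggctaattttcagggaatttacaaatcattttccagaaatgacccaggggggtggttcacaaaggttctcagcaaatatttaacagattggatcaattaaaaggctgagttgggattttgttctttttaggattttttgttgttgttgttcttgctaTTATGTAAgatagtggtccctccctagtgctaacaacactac
Slc22a29, chr19:8218851-8219150, minus strand: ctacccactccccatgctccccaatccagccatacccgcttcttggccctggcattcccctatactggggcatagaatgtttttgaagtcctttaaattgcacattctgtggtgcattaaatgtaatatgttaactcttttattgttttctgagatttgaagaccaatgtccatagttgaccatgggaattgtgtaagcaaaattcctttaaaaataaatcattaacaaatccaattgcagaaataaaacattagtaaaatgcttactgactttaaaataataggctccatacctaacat
Slc22a6, chr19:8617746-8618045, plus strand: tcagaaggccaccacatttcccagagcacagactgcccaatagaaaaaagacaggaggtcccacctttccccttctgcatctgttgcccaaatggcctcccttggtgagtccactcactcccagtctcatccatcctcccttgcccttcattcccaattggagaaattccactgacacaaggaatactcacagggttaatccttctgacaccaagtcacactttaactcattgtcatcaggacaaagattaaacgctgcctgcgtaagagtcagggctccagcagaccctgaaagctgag
Slc22a8, chr19:8592932-8593231, plus strand: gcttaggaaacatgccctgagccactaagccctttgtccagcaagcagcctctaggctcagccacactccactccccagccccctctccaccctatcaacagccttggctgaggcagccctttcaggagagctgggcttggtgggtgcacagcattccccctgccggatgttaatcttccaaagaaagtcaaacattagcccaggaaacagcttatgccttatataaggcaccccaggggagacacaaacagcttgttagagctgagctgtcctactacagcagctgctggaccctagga
A single match was found, TTATGTAA at bases 259 to 266 of the Slc22a26 window, just past the transcript start. This sequence occurs in 0.938% of all 32851 promoter windows, and any of the 4 sequences in 12.4%. The other 3 windows shown, and those of Slc22a2 and Slc22a12, hold none of the 4. The matches describe letters only.

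All values are log2 expression as the authors deposited it after RMA, so a difference of 1 is a 2-fold change of the array signal. Dim signals are compressed and folds may be understated. Probe sets differ in their response, so levels of different genes are not set against each other. Array medians ran from 5.88 to 6.01 log2. Correlations between arrays over the genes tested were 0.976 to 0.996, and 0.989 to 0.995 within a group. The Clock probe set averaged 8.95 ± 0.11 in KO and 8.86 ± 0.24 in WT (SD, n = 11 each), and as no label says which part of the gene is deleted, it does not check the genotype labels. Of 14 proximal tubule markers, 13 passed the filter, and the lowest of them averaged 11.7 log2. None of 3 adrenal cortex markers passed. The 2 KO pools at ZT20 stood apart from the other KO arrays in a set of sex-dimorphic and androgen-responsive kidney genes, and the genotype differences and KO rhythms are given with and without them.

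Over the whole cycle, Slc22a26, Slc22a7 and Slc22a6 were lower and Slc22a29 was higher in KO than in WT kidneys. Slc22a2, Slc22a8 and Slc22a12 did not pass the test. The differences came from a limma fit of a mean and a 24 h wave per genotype to all 22 arrays, and the p-values were adjusted by Benjamini-Hochberg over all 13967 genes, with a gene called below 0.05. Of all genes, 9.14% were called, 3.9% lower and 5.23% higher in KO, against 3 lower and 1 higher among the 7. The 7 were chosen with earlier results known, so that share is not evidence about the family. The 11 KO and 11 WT arrays did not overlap for 0.136% of all genes and overlapped for each of the 7. Counts of KO pools beyond every WT pool are given below as a description, and their share over all genes was not computed. The median difference was -0.10 log2 over the 7 and 0.0040 over all genes.

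Slc22a26 had the largest difference of the 7. KO pools read 6.13 and 6.18 (ZT0), 7.10 and 7.16 (ZT4), 6.24 and 7.18 (ZT8), 7.29 and 7.36 (ZT12), 8.17 (ZT16), and 6.79 and 5.42 (ZT20). WT pools read 8.15 and 7.63 (ZT0), 7.83 and 7.92 (ZT4), 8.12 (ZT8), 8.33 and 7.88 (ZT12), 7.91 and 8.37 (ZT16), and 8.04 and 8.13 (ZT20). Of the 11 KO pools, 10 lay below every WT pool, and the exception was the single KO pool at ZT16, which lay inside the WT range of 7.63 to 8.37. KO values were also more spread, with an SD of 0.76 against 0.22 in WT. The difference was -1.18 ± 0.20 log2 (standard error of the fit, limma adjusted p = 0.000509), a signal 2.27-fold lower in KO. Without the KO pools at ZT20 it was -0.98 (adjusted p = 0.0026).

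Slc22a29, from the same stretch of chromosome 19, differed in the other direction. KO pools read 8.01 and 7.25 (ZT0), 7.22 and 7.15 (ZT4), 7.64 and 7.05 (ZT8), 7.22 and 6.81 (ZT12), 7.45 (ZT16), and 8.76 and 8.09 (ZT20). WT pools read 7.19 and 6.65 (ZT0), 6.30 and 6.81 (ZT4), 6.27 (ZT8), 6.47 and 6.39 (ZT12), 6.92 and 6.83 (ZT16), and 7.17 and 6.37 (ZT20). The genotypes did not overlap at any of the 6 times, although 3 of the 11 KO pools fell inside the WT range over the whole day. Groups of 1 or 2 pools separate easily at a single time, and the share of all genes that do so was not computed. The difference was 0.89 ± 0.14 log2 (limma adjusted p = 0.000415), a signal 1.85-fold higher in KO, and 0.71 without the KO pools at ZT20 (adjusted p = 0.00399). The gene has close relatives beside it, and cross-reading between them by its probes was not tested. A separate probe set that the annotation assigns jointly to Slc22a28, Slc22a29 and Slc22a30 was left out of the tests and averaged 11.29 ± 0.12 in KO and 11.43 ± 0.12 in WT (SD, n = 11 each).

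Slc22a7, the OAT2 gene, was lower in KO. KO pools read 10.32 and 10.31 (ZT0), 10.25 and 10.45 (ZT4), 9.73 and 10.20 (ZT8), 10.52 and 10.42 (ZT12), 10.71 (ZT16), and 10.43 and 10.19 (ZT20). WT pools read 11.30 and 10.72 (ZT0), 10.86 and 10.22 (ZT4), 10.61 (ZT8), 11.01 and 10.80 (ZT12), 10.79 and 10.87 (ZT16), and 11.09 and 10.99 (ZT20). At 5 of the 6 times every KO pool lay below every WT pool, and at ZT4 the second WT pool, 10.22, was below both KO pools. For this pattern too, the share over all genes was not computed. The difference was -0.49 ± 0.10 log2 (limma adjusted p = 0.00278), a signal 1.40-fold lower in KO, and -0.41 without the KO pools at ZT20 (adjusted p = 0.032). The spread of the pools was about as wide in KO (SD 0.25) as in WT (SD 0.28).

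Slc22a6, the OAT1 gene, had a smaller difference that depended in size on ZT20. KO pools read 11.21 and 11.46 (ZT0), 11.35 and 11.44 (ZT4), 11.34 and 11.47 (ZT8), 11.42 and 11.52 (ZT12), 11.21 (ZT16), and 10.65 and 10.92 (ZT20). WT pools read 11.47 and 11.46 (ZT0), 11.67 and 11.43 (ZT4), 11.67 (ZT8), 11.60 and 11.63 (ZT12), 11.42 and 11.46 (ZT16), and 11.45 and 11.55 (ZT20). Of the 11 KO pools, 7 lay below every WT pool, and the 2 lowest were those at ZT20. The difference was -0.28 ± 0.06 log2 (limma adjusted p = 0.00496), a signal 1.21-fold lower in KO. Without the KO pools at ZT20 it was -0.18 (adjusted p = 0.0295). With ZT20 left out in KO and WT alike it was -0.17 and not called (adjusted p = 0.086), and Slc22a7 likewise lost its call there at -0.41 (adjusted p = 0.0785).

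Slc22a8, the OAT3 gene next to Slc22a6, ran from 11.70 through a median of 11.88 to 12.09 in KO and from 11.70 through 11.85 to 11.92 in WT. For this gene 4 KO pools lay above every WT pool, and the KO pools at ZT20 were the lowest of their genotype. Its difference was 0.05 ± 0.04 log2, with a 95% interval of -0.03 to 0.12 (limma adjusted p = 0.44). Slc22a2, the cation carrier, ran from 11.46 through 11.68 to 11.75 in KO and from 11.62 through 11.73 to 11.82 in WT. It differed by -0.09 ± 0.04 log2, with an interval of -0.17 to -0.02 (adjusted p = 0.116). Slc22a12, the urate exchanger, ran from 11.91 through 12.28 to 12.42 in KO and from 12.26 through 12.32 to 12.44 in WT. It differed by -0.10 ± 0.04 log2, with an interval of -0.19 to -0.02 (adjusted p = 0.122). These intervals hold for 1 gene at a time. Without the KO pools at ZT20 the differences were 0.07 for Slc22a8 (adjusted p = 0.372), -0.06 for Slc22a2 (adjusted p = 0.442) and -0.04 for Slc22a12 (adjusted p = 0.581), and none was called.

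**Figure D1:**
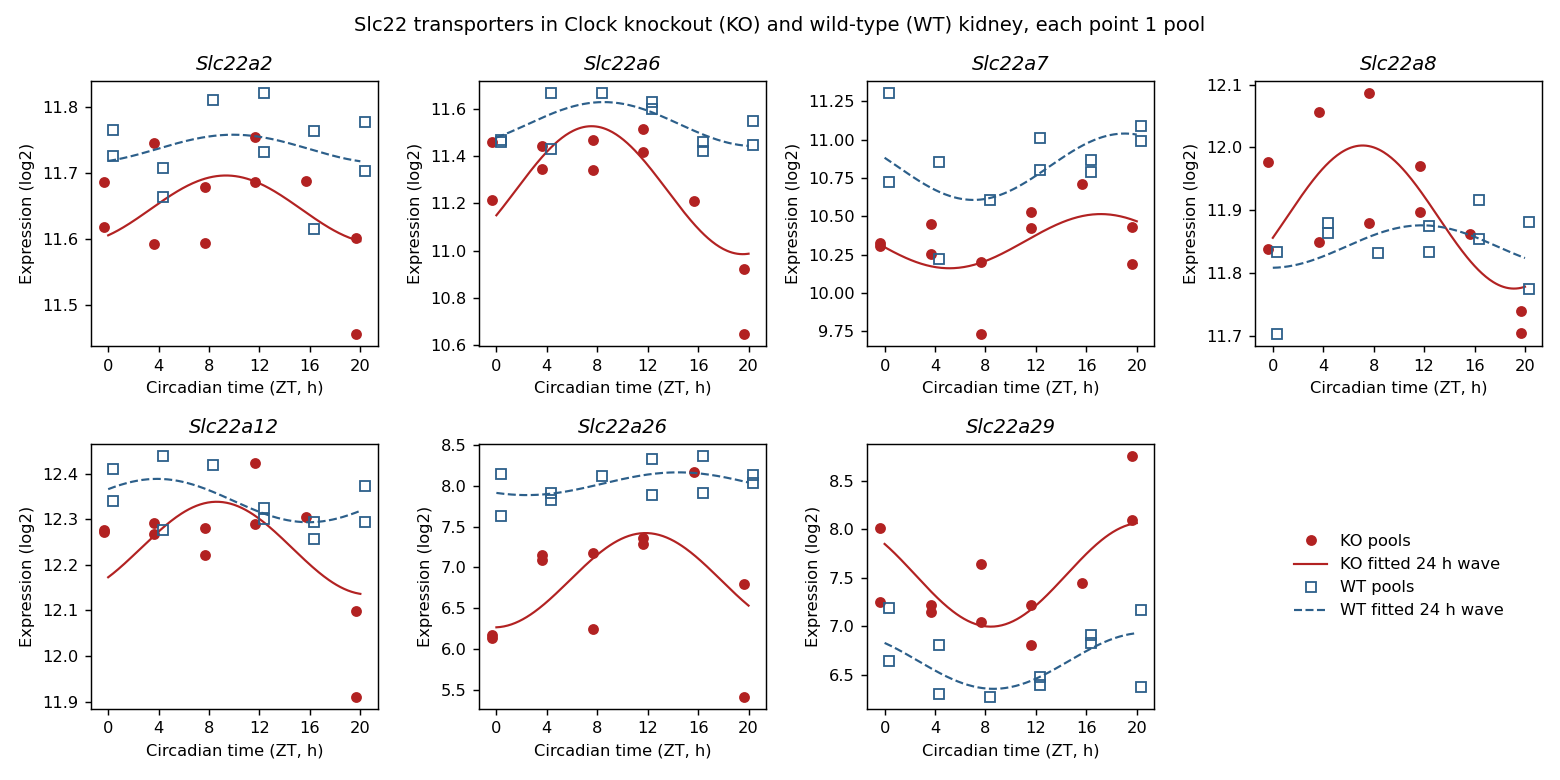
Expression of the 7 Slc22 genes in log2 (vertical axes, one scale per gene) against circadian time in hours, with each point 1 pool (KO filled red circles, WT open blue squares, offset sideways) and lines the fitted 24 h waves of KO (solid) and WT (dashed). For Slc22a29 the KO pools lie above the WT pools at all 6 times, and for Slc22a26 10 of the 11 KO pools lie below every WT pool. The share of all genes with such patterns was not computed.

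**Figure D2:**
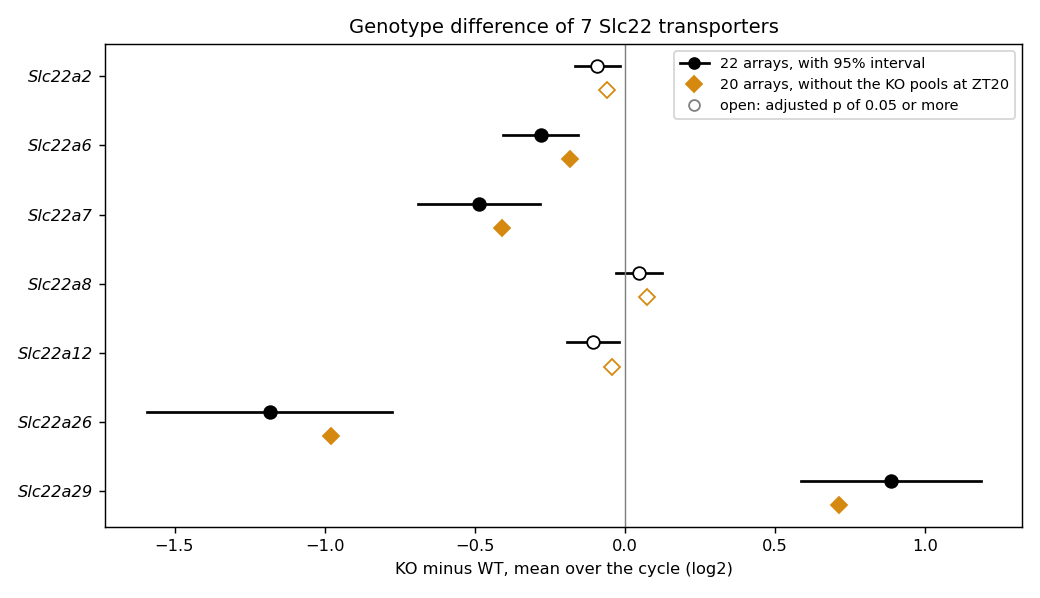
KO minus WT difference of the cycle mean in log2 (horizontal axis) for each gene, from 22 arrays with its 95% interval (black circles) and from 20 arrays without the KO pools at ZT20 (orange diamonds). Filled symbols passed an adjusted p of 0.05. The same 4 genes are filled in both fits.

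The comparison was repeated within each pool number. Within the 12 pool 1 arrays, the 4 called genes differed by -1.11 (Slc22a26), 0.99 (Slc22a29), -0.61 (Slc22a7) and -0.35 log2 (Slc22a6), with limma adjusted p from 0.00863 to 0.0338. Within the 10 pool 2 arrays the differences were -1.39, 0.69, -0.35 and -0.18 log2 in the same order, with the same signs and adjusted p from 0.0613 to 0.574. Only 1 gene of all 13967 was called in the pool 2 arrays, so the missing calls there are not particular to these genes. In KO, pool 2 read higher than pool 1 at each of the 5 times with both pools for Slc22a2, Slc22a6 and Slc22a8, and lower at each for Slc22a12 and Slc22a29. In WT no gene of the 7 had the same order at all 5 such times. The 7 genes share their pools, and the share of all genes with a fixed order was not computed. In the 22 fits that leave out 1 array each, all 4 kept their call, and Slc22a26 ranged from -1.36 to -1.02, Slc22a29 from 0.79 to 0.95, Slc22a7 from -0.55 to -0.43 and Slc22a6 from -0.31 to -0.23 log2.

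None of the 7 genes had a 24 h rhythm past the test in WT kidney, where 6.48% of all genes did. Limma adjusted p ran from 0.355 to 0.917, and 0 of the 7 had an unadjusted p under 0.05, against 22.6% of all genes. The largest fitted WT amplitude, the distance from the mean to the peak of the wave, was that of Slc22a29 at 0.29 ± 0.14 log2 with a peak at ZT20.6. Slc22a7 followed with 0.22 ± 0.10 and a peak at ZT19.0. In the other 5 the WT amplitude was between 0.02 and 0.14 log2.

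In KO kidney, Slc22a6 alone passed the test for rhythm, against 2.46% of all genes. Its amplitude was 0.27 ± 0.06 log2 with a peak at ZT7.54 (limma adjusted p = 0.0389), and its WT amplitude was 0.09 ± 0.06 (adjusted p = 0.584). The call rested on the ZT20 pools: without them the KO amplitude was 0.09 log2 (adjusted p = 0.837), and it was lost in 9 of the 22 leave-one-out fits. Slc22a29 had a KO amplitude of 0.54 ± 0.14 with a peak at ZT20.4 (adjusted p = 0.0922), which was 0.25 without the KO pools at ZT20 (adjusted p = 0.814). Slc22a26 had 0.58 ± 0.20 with a peak at ZT11.8 (adjusted p = 0.242), and 0.55 without those pools (adjusted p = 0.385). Of the 7, 4 had an unadjusted p under 0.05 in KO: these 3 and Slc22a8 (0.11 ± 0.04, adjusted p = 0.226). Of all genes, 13.8% did.

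The fitted waves differed between genotypes in 0 of the 7 genes, and 0.043% of all genes passed that test. Limma adjusted p ran from 0.718 to 0.964, and 0 of the 7 had an unadjusted p under 0.05, against 7.78% of all genes. The call for Slc22a6 in KO and its absence in WT are therefore no evidence of a difference in rhythm.

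At ZT20, Slc22a26 and Slc22a6 were lower and Slc22a29 was higher in KO, and these 3 of the 7 passed the test at that time, against 1.75% of all genes (1.04% lower and 0.709% higher in KO). This test used limma with a mean for each of the 12 groups. Slc22a26 read 6.79 and 5.42 in KO, against 8.04 and 8.13 in WT, a difference of -1.98 ± 0.35 log2 (limma adjusted p = 0.0097). Slc22a6 read 10.65 and 10.92 in KO, against 11.45 and 11.55 in WT, a difference of -0.71 ± 0.11 (adjusted p = 0.00516). Slc22a29 read 8.76 and 8.09 in KO, against 7.17 and 6.37 in WT, a difference of 1.65 ± 0.31 (adjusted p = 0.0139). The separate probe set assigned jointly to Slc22a28, Slc22a29 and Slc22a30, which was not tested, went the other way. It read 11.04 and 11.11 in KO, against 11.49 and 11.48 in WT. In each of the 3 genes both KO pools lay outside the WT pair on the same side.

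Slc22a7 differed by -0.73 ± 0.21 log2 at ZT20 (limma adjusted p = 0.0895), Slc22a12 by -0.33 ± 0.09 (adjusted p = 0.0715), Slc22a2 by -0.21 ± 0.09 (adjusted p = 0.216) and Slc22a8 by -0.11 ± 0.09 (adjusted p = 0.552). The calls at ZT20 depend on single pools. Without WT pool 2 at ZT20 none of the 3 genes kept its call. Without KO pool 1 Slc22a6 and Slc22a29 lost theirs, and without KO pool 2 Slc22a26 lost its call, with a difference of -1.29 log2. Their smallest differences were -0.58 log2 for Slc22a6, without KO pool 1, and 1.25 log2 for Slc22a29, without WT pool 2. At the other 5 times, limma called 0 of the 35 gene-by-time differences, 8 of which reached an unadjusted p under 0.05. The 35 values share their pools, and the unadjusted share over all genes was not computed for those times. At those times 0.0286% (ZT0), 0.00716% (ZT4), 0.0286% (ZT8), 0.122% (ZT12) and 0.0143% (ZT16) of all genes were called.

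Whether the genotype difference at ZT20 exceeded that at the other times was tested directly, as the ZT20 difference minus the mean of the differences at the other 5 times. None of the 7 passed, and 0.0286% of all genes did. Slc22a26 differed by -0.93 log2 on average at the other times, an excess at ZT20 of -1.05 ± 0.39 (limma adjusted p = 0.547). Slc22a29 differed by 0.71 at the other times, an excess of 0.94 ± 0.35 (adjusted p = 0.547). Slc22a6 differed by -0.19 at the other times, an excess of -0.53 ± 0.12 (adjusted p = 0.194), and Slc22a12 by -0.05, an excess of -0.27 ± 0.10 (adjusted p = 0.514). These 4 had an unadjusted p under 0.05, as did 8.1% of all genes.

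The KO pools at ZT20 were also set beside the other 9 KO pools, as a description. Both read outside that range on one side for 4 of the 7 genes, against 8.68% of all genes. Slc22a6 read 10.65 and 10.92 at ZT20, against 11.21 to 11.52 at the other times. Slc22a12 read 12.10 and 11.91, against 12.22 to 12.42. Slc22a8 read 11.70 and 11.74, against 11.84 to 12.09, and Slc22a29 read 8.76 and 8.09, against 6.81 to 8.01. For Slc22a2 and Slc22a26 1 pool lay outside, and for Slc22a7 both lay inside.

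**Figure D3:**
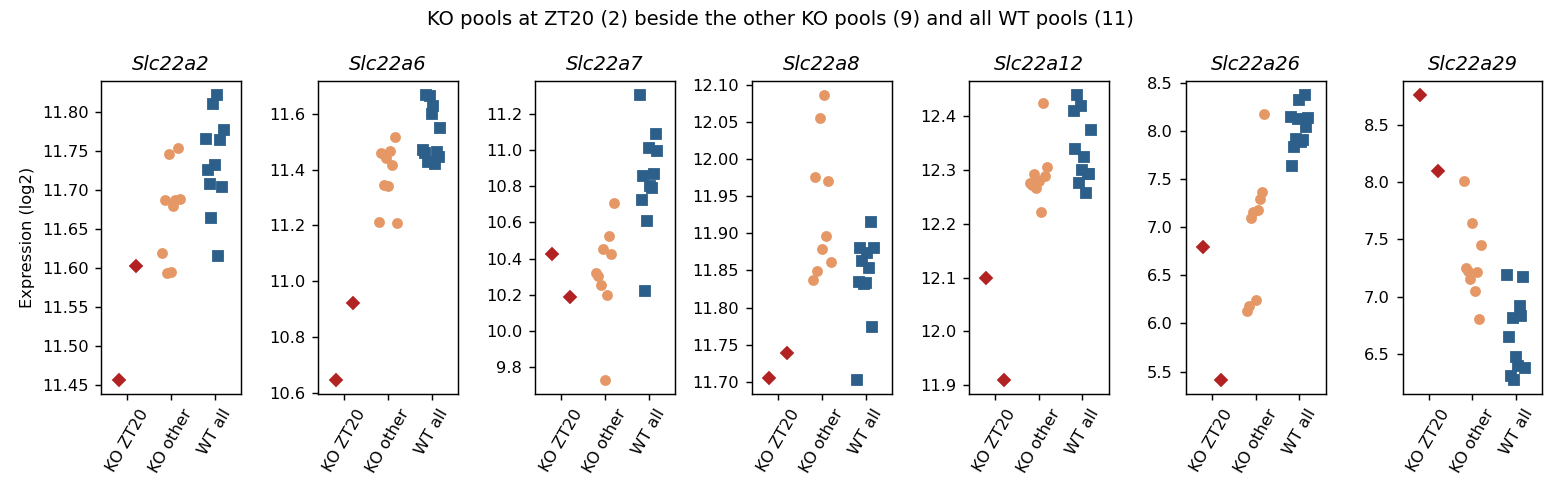
Expression in log2 (vertical axes, one scale per gene) of the KO pools at ZT20 (red diamonds, 2), the KO pools of the other 5 times (orange circles, 9) and all WT pools (blue squares, 11). Both red diamonds lie below the orange circles for Slc22a6, Slc22a8 and Slc22a12 and above them for Slc22a29.

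Other transcripts moved with these pools. The mean log2 level over 12 sex-dimorphic or androgen-responsive kidney genes was 8.67 and 8.37 in the KO pools at ZT20, against 9.31 to 10.7 in the other KO pools and 9.90 to 10.8 in WT. At ZT20, 8 of these 12 were called lower and 1 higher in KO, against 1.04% and 0.709% of all genes. Over the cycle 8 were lower and 2 higher, against 3.9% and 5.23%. Without the KO pools at ZT20, 7 were lower over the cycle and 2 higher. A KO rhythm was called in 7 of the 12 with those pools and in 0 without them, against 343 and 12 of all 13967 genes. The list was chosen with earlier results known, so these shares are no evidence about it. The mean covers both directions: at ZT20 Slc7a12 was the higher one (3.01 log2, limma adjusted p = 0.0392). Cyp4a14 (1.78 log2), Kap (-0.08) and Odc1 (-0.37) were not called there. The lowest mean of a gene on that list was 8.13 log2, above the filter's 5.21. Single readings in the KO pools at ZT20 went below that filter, with Cyp4a12a at 5.02 and 4.79. Slco1a1, an organic anion transporter of another family that is on that list, differed by -4.55 log2 at ZT20 (limma adjusted p = 0.000673). Its KO pools there read 6.30 and 5.18. The part of the genes of this list, and of the marker lists below, in the Slc22 values was not tested. The sex of the mice in each pool is not in the labels, so the mix of sexes was looked at in transcripts chosen after the other values were seen. Xist, expressed from the inactive X chromosome of females, was below the filter in the mean over arrays and at most 3.84 log2 in any array, with 3.45 and 3.44 in the KO pools at ZT20. The Y-linked transcript Eif2s3y read 8.91 and 8.73 in the KO pools at ZT20, against 8.65 to 9.12 in the other KO pools and 8.22 to 9.38 in WT. Kdm5d and Uty, also Y-linked, likewise lay within the range of the other KO pools in both. The mean over 13 proximal tubule markers was 12.40 and 12.39 in the KO pools at ZT20, against 12.39 to 12.48 in the other KO pools and 12.34 to 12.43 in WT, and 0 of the 13 were called at ZT20 in limma. Over the cycle 3 of the 13 were higher in KO (Slc5a2, Slc5a12 and Gatm) and 1 was lower (Slc7a13). Without the KO pools at ZT20 the same 3 were higher and 0 were lower. The mean over 8 markers of other tubule segments was 11.01 and 10.98 in the KO pools at ZT20, against 10.81 to 10.92 in the other KO pools and 10.70 to 10.92 in WT, and over the cycle 4 of the 8 were higher (Calb1, Slc4a1, Scnn1g and Atp6v1b1) and 1 was lower in KO (Umod). Without the KO pools at ZT20, 3 of the 8 were higher and 0 lower, with Calb1 and Umod no longer called. The mean over 3 hepatocyte markers was 8.74 and 8.79 in the KO pools at ZT20, against 9.02 to 9.26 in the other KO pools and 8.62 to 9.10 in WT. Of these markers only Apob left the range of the other KO pools, with 9.23 and 8.98 against 9.73 to 10.59. Apoa1 and Ttr lay within it, and Ttr was called higher in KO at ZT20 (0.68 log2, limma adjusted p = 0.0204). The mean over 2 proliferation markers was 6.0 and 7.64 in the KO pools at ZT20, against 5.43 to 7.05 in the other KO pools and 5.50 to 6.78 in WT. The mean over 4 stroma markers was 8.25 and 8.78 in the KO pools at ZT20, against 7.55 to 8.56 in the other KO pools and 7.41 to 8.31 in WT. The KO pool at ZT16, where Slc22a26 lay within the WT range, had a mean of 9.93 over the 12 sex-dimorphic or androgen-responsive genes, inside the range of both genotypes.

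Among the other Slc22 genes, 16 had a probe set with a single symbol and 13 passed the filter. Over the cycle 1 of the 13 was lower in KO, 0 were higher and 12 were not called, with a median difference of -0.02 log2. Slc22a4 (OCTN1), a carrier of organic cations and zwitterions, was the lower one, at -0.20 ± 0.06 log2 (limma adjusted p = 0.0265). It was also rhythmic in KO (amplitude 0.33 ± 0.06 log2, adjusted p = 0.00749), as was Slc22a22, a prostaglandin carrier in rodents (0.32 ± 0.06, adjusted p = 0.0126). Slc22a5, the carnitine carrier OCTN2, was rhythmic in WT (amplitude 0.17 ± 0.04 log2, adjusted p = 0.0357). At ZT20, Slc22a30 (-0.62 ± 0.12 log2, adjusted p = 0.0221) and Slc22a22 (-0.56 ± 0.11, adjusted p = 0.0151) were lower in KO. Slc22a30, which lies between Slc22a8 and Slc22a29, differed by -0.21 ± 0.07 over the cycle (adjusted p = 0.0508). When the ZT20 pools of KO were left out, 0 of the 13 were called for genotype or for KO rhythm in limma. That fit called 639 of all 13967 genes for genotype and 12 for KO rhythm, so calls were few in general. Slc22a4 then differed by -0.16 (adjusted p = 0.181), and the KO amplitudes were 0.25 for Slc22a4 (adjusted p = 0.40) and 0.17 for Slc22a22 (adjusted p = 0.581). Slc22a27, between Slc22a26 and Slc22a29, was below the filter, at 5.12 ± 0.44 in KO and 4.73 ± 0.18 in WT (SD, n = 11 each).

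**Figure D4:**
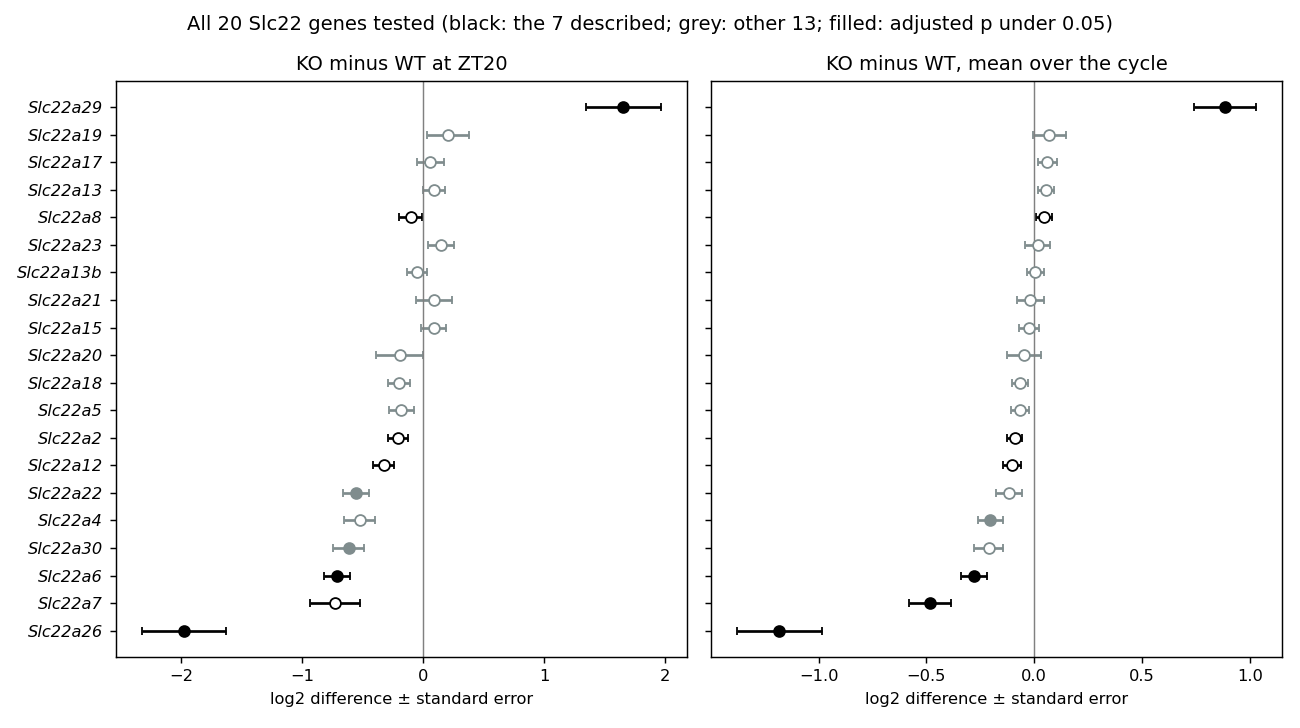
KO minus WT differences in log2 with standard errors (horizontal axes) for the 20 Slc22 genes tested, at ZT20 (left) and as the mean over the cycle (right), with the 7 genes described in black, the other 13 in grey and filled symbols for an adjusted p under 0.05. Slc22a29 at the top and Slc22a26 at the bottom stand at the ends in both panels.

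Carriers of other families that move organic ions were counted from a list, and whether they lie in the same cells was not tested. Of 19, 18 passed the filter, 6 were lower and 2 higher in KO, and 10 were not called, with a median of -0.09 log2. The organic anion transporters Slco1a1 (-1.63 log2, limma adjusted p = 0.00482), Slco1a6 (-0.47 log2, adjusted p = 4.25e-05), Slco3a1 (-0.44 log2, adjusted p = 0.000109) and Slco2b1 (-0.22 log2, adjusted p = 0.00217) were lower. The efflux pumps Abcb1b (1.04 log2, adjusted p = 9.08e-07) and Abcc4 (0.39 log2, adjusted p = 0.00275) were higher. Without the KO pools at ZT20, 4 of the 18 were lower and 2 higher, with Slco1a1 at -1.01 (limma adjusted p = 0.0269). A KO rhythm was called in 6 of the 18 with those pools and in 0 without them. Over all 13967 genes, leaving them out lowered the calls from 1276 to 639 for genotype and from 343 to 12 for KO rhythm. At ZT20, 5 of the 18 were lower and 0 higher. Slc47a1 (MATE1), which passes on cations taken up by Slc22a2, differed by -0.12 log2 over the cycle (adjusted p = 0.0676). Of 7 regulators and scaffolds of proximal tubule transporters, 5 passed the filter and 0 were called over the cycle in limma, with or without the KO pools at ZT20. Hnf4a, a transcription factor of the proximal tubule, differed by -0.07 log2 (adjusted p = 0.244) and Pdzk1, a scaffold of luminal transporters, by -0.05 (adjusted p = 0.49). Slc47a1, Hnf4a and Pdzk1 were chosen for mention after their values were seen.

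The likeness of profiles was measured as Pearson's r over the 22 arrays after each genotype's mean was subtracted, and it is given as a description. The difference of the genotype means plays no part in it, but a genotype difference at single times, such as ZT20, does. The arrays share their times and pools. Slc22a6 was most like Acy3 (r = 0.96), Pzp (0.96) and Haao (0.93), of which Pzp is on the sex-dimorphic list, and without the KO pools at ZT20 these were 0.94, 0.88 and 0.78. Slc22a29 was most like Cdh6 (0.88), Spp2 (0.87) and Ehd2 (0.86), and without those pools these were 0.83, 0.82 and 0.84. Slc22a8 was most like Abhd3 (0.87), Aoah (0.85) and Cryzl2 (0.85), and Slc22a2 like Gpr155 (0.86), Slc6a20b (0.83) and Me1 (0.81). Leaving those pools out gave 0.77, 0.77 and 0.75 for Slc22a8, and 0.88, 0.75 and 0.71 for Slc22a2. Slc22a26 was most like Ehhadh (0.84), Lpl (0.83) and Keg1 (0.78), and Slc22a7 like Acadm (0.74), Akr1c18 (0.74) and Il17ra (0.69). Leaving those pools out gave 0.75, 0.73 and 0.70 for Slc22a26, and 0.75, 0.73 and 0.71 for Slc22a7. Slc22a12 was most like Mogat1 (0.81), Sil1 (0.79) and Pctp (0.79), and these values rested on the KO pools at ZT20, since without them they were 0.39, 0.45 and 0.50. Among the 7 themselves, Slc22a6 and Slc22a29 ran opposite to each other (r = -0.91, and -0.84 without the KO pools at ZT20). Slc22a6 ran with Slc22a8 (0.76, and 0.53 without them) and with Slc22a2 (0.75, and 0.58). Slc22a7 and Slc22a6 had an r of -0.03 with and without those pools.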

How the data were processed

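RNA of 22 pools of mouse kidney was hybridised to Affymetrix whole-transcript arrays, 100 ng per array, per the labels' protocols. The authors deposited log2 expression per probe set, and the submitters' processing notes name RMA. That method subtracts background, forces one distribution on all arrays and combines the probes of each set, which hides a common shift of most genes. No source used here gives the software version or genome build. The precision depends on the number of arrays, which have no read depth.

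The platform annotation gives 1 gene symbol to 21789 of the 35556 probe sets, several to 1621 and no entry to 12146. Among those with 1 symbol, sets with a mean over arrays below the 30th percentile (5.21 log2) were dropped, and each of the 13967 remaining genes was read from its brightest set. Models were fitted with limma 3.58.1 in R 4.3.3. One had, for each genotype, a mean and a 24 h wave (16 residual degrees of freedom). The other had 12 group means (10 residual degrees of freedom), which takes the spread of a lone pool from the other groups. P-values were adjusted by Benjamini-Hochberg over all genes. Values after ± are the fit's standard errors where SD is not written, and for an amplitude the mean of those of its cosine and sine. The models were tested on simulated data. Settings of the filter, scaling, probe set choice, pool block, model and left-out arrays were varied.

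Named are the 7 genes, other Slc22 genes called in any test, called genes of the lists of organic ion carriers and of regulators (at most 6 per list, by size), and the 3 genes most like each of the 7. Marker lists are given as counts or mean levels, and any other gene was named after its values were seen. Over the cycle limma called 0 of the 2 glomerulus, 2 adipocyte, 3 immune, 4 stroma and 2 proliferation markers past the filter. Of 2 tubular injury markers Havcr1 was called lower in KO, and of 3 hepatocyte markers Ttr was called higher. Both kept their call without the KO pools at ZT20. The genes, lists and tests were chosen with earlier results of these data known.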

Additional observations from a re-analysis of the deposited data

How the results depend on the processing

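The number of arrays limits the precision, and a group of 1 or 2 pools gives little to a single time. Scaling by array medians moved the median of all genes by 0.03 log2 and split the genotype calls into 1111 higher and 343 lower, against 731 and 545. Of 392 values of single Slc22 genes under settings other than leaving out 1 array, 378 kept their direction and side of the threshold, 12 lost a call, 2 gained one and 0 reversed. The values of the rhythm tests are amplitudes without a sign, so only genotype and ZT20 values could reverse. A value called in neither setting counts as kept. The genotype difference called 1276 genes, against 823 with group means at each time, 639 without the KO pools at ZT20, 434 without the ZT20 pools of both genotypes, 565 in pool 1 arrays and 1 in pool 2 arrays. Of the 7 Slc22 genes it called 4, against 2 without the ZT20 pools of both genotypes and 0 in pool 2 arrays. WT rhythm called 905 genes, against 140 with group means, 510 without the ZT20 pools of both genotypes, 95 in pool 1 and 14 in pool 2 arrays. KO rhythm called 343 genes, against 228 with no filter, 59 with group means, 12 without the KO pools at ZT20, 8 without those of both genotypes, and 0 in pool 1 and in pool 2 arrays. Its 1 call among the 7, Slc22a6, became 0 with no filter (adjusted p = 0.0606), with quantile normalization repeated (0.0542), without the KO pools at ZT20, without the ZT20 pools of both genotypes and in either pool. The rhythm difference called 6 genes, against 10 with a filter at the 50th percentile, 1 with group means, 3 without the KO pools at ZT20, 2 without those of both genotypes, 3 in pool 1 and 0 in pool 2 arrays. The ZT20 difference called 244 genes, against 154 with no filter. The ZT20 excess called 4 genes, against 24 with a filter at the 50th percentile, 12 after array medians were subtracted and 16 with quantile normalization repeated. The cause of these changes was not tested, beyond the fewer arrays or genes some alternatives use.

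Leaving out each array in turn gave 903 to 1850 genes for the genotype difference, 602 to 954 for WT rhythm, 77 to 477 for KO rhythm, 1 to 11 for the rhythm difference, 21 to 366 for the ZT20 difference and 0 to 42 for the ZT20 excess. Of the 7 Slc22 genes it gave 4 for the genotype difference in each of the 22 fits, 0 to 2 for KO rhythm, 0 to 4 for the ZT20 difference and 0 for the other tests. Where it left 1 pool in a group, that pool was assumed to vary like the others.

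Pool numbers were not taken as pairs, since no label says what they mark and only 25 of the 45 correlations of pool differences between groups were over 0.1 (median 0.12, range -0.41 to 0.55). As a hint from the data, the mean correlation with the other groups was above 0 in each of the 10 groups with 2 pools (0.0069 to 0.20), and 2 of the 10 had no correlation below 0. With the pool number as a replicate block, the ZT20 excess called 19 genes and the genotype difference 1405. Of the 7 Slc22 genes the block called 4 at ZT20, adding Slc22a12 (adjusted p = 0.0494), which was also called with a filter at the 50th percentile (adjusted p = 0.0431). It changed no other call among the 7. Counts for the lists and the other Slc22 genes without the KO pools at ZT20, and the sex chromosome transcripts, were added after seeing the data.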
